A study of Mus musculus with 14 samples.

Results

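The cells described here were mouse skin epithelial cells that carried RNA of at least 2 of the 5 genes Cldn10, Fam13a, Mfap2, Slc7a2 and Mycn. They were chosen from single-cell RNA counts of back skin, one 10x library from aged mice and one from young mice. A barcode counted as a cell with 1000 or more UMIs (unique molecular identifiers, each standing for 1 captured RNA molecule), 500 or more genes and at most 10% of its UMIs from mitochondrial genes. A cell was selected if it had 1 or more UMIs in at least 2 of the 5 markers and no UMI of Krt79, an upper follicle keratin. It also needed fewer than 2 of the 6 bulge genes Cd34, Postn, Krt24, Grem1, Aspn and Angptl7 detected, and less than 1% of its UMIs from the suprabasal keratins Krt1 and Krt10. Of 8396 cells, 172 were selected: 114 of 4351 aged cells and 58 of 4045 young cells. The marker and exclusion values therefore chose the cells and are given as a description, without a test.

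The study compared skin stem cells of 24-month-old (aged) and 2-month-old (young) female mice, with 14 libraries: 2 of single cells, 8 of bulk RNA and 4 of open chromatin (ATAC-seq, which reads where a transposase can cut DNA). The labels give the strain of the mice under different names, so it is not stated here. Back skin was digested with trypsin and cells were sorted by flow cytometry. Hair follicle stem cells (HFSC) were sorted as lineage-negative cells high in integrin alpha 6, positive for CD34 and negative for Sca1. Epidermal stem cells (EpdSC) were lineage-negative, high in integrin alpha 6, negative for CD34 and positive for Sca1. The 10x libraries held all lineage-negative, integrin alpha 6-positive cells, so they were not sorted on CD34 or Sca1. Aged HFSC, young HFSC, aged EpdSC and young EpdSC each had 2 bulk RNA libraries and 1 ATAC library. The labels do not say that replicates came from separate animals or how many animals were pooled, so each p-value reflects library-to-library spread, which may be technical.

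The hair follicle renews itself from stem cells in the bulge and from the hair germ below it, which drive cycles of growth and rest. Hedgehog signalling works through the receptor PTCH1: when a hedgehog ligand binds, GLI transcription factors switch on targets that include Gli1 and Ptch1. Lgr5, the receptor for the WNT-enhancing R-spondins, is known in mouse back skin as a marker of cycling cells in the lower follicle, and Lhx2 is a LIM-homeodomain transcription factor of follicle stem cells.

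The 5 markers belong to unlike families. Cldn10 encodes a claudin, a tight junction protein that lets ions pass between cells. Fam13a is best known from human genetics, where FAM13A variants are associated with lung function. Mfap2 encodes a glycoprotein of the microfibrils that surround elastic fibres, Slc7a2 a transporter of cationic amino acids such as arginine, and Mycn a transcription factor of the MYC family.

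Fam13a was the marker found in most selected cells. In aged selected cells it had 186 UMIs in 95 of 114 cells (83.3%), and in young selected cells 132 UMIs in 47 of 58 cells (81.0%). Pooled over the selected cells this was 765 CPM (UMI counts scaled to a common total) in the aged library and 462 CPM in the young one, against 21.4 CPM in aged and 9.67 CPM in young other cells. Cldn10 stood farthest above the other cells. It had 83 UMIs (341 CPM) in aged selected cells and 124 UMIs (434 CPM) in young selected cells, against 1.66 CPM in aged and 3.76 CPM in young other cells. It was found in 51 aged (44.7%) and 38 young (65.5%) selected cells.

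Mfap2 had 85 UMIs (349.6 CPM) in aged and 68 UMIs (238 CPM) in young selected cells, against 4.99 CPM in aged and 3.76 CPM in young other cells. Slc7a2 and Mycn were the sparser markers. Slc7a2 had 40 UMIs in 30 aged and 48 UMIs in 29 young selected cells. Mycn had 34 UMIs in 27 aged and 43 UMIs in 32 young selected cells. The most frequent pair was Fam13a with Mfap2, present together in 57 aged and 31 young selected cells.

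Free RNA in the droplets was read from cells that should lack the markers. In the Krt1/Krt10-rich cells, which are differentiating and number 441 aged and 320 young cells, 0 to 0.454% of aged and 0 to 0.938% of young cells had a UMI of any one marker. Those cells were deeper than the selected ones: their median was 3342 UMIs in the aged and 5612.5 in the young library, against 1835.5 in aged and 4657 in young selected cells. The share of selected cells with each marker was therefore far above the share in cells of greater depth, as the rule requires of at least 2 markers per cell.

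Many selected cells lay at the selection edge, with just the 2 markers that the rule requires. Of the aged selected cells, 78 had 2 markers, 29 had 3, 7 had 4 and 0 had all 5. Of the young selected cells, 17 had 2 markers, 18 had 3, 17 had 4 and 6 had all 5. Just outside the edge, 168 aged and 61 young cells passed the exclusions with exactly 1 marker. A further 9 aged and 33 young cells had 2 or more markers but failed an exclusion, 5 aged and 20 young on Krt79 and 4 aged and 16 young on the bulge genes. None failed on Krt1 and Krt10.

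Selected cells made up 2.62% of aged cells (95% exact binomial interval 2.17 to 3.14%) and 1.43% of young cells (1.09 to 1.85%). With 1 library per age there is no replicate of this difference, and the intervals cover counting error only. The order of the ages depended on the rule. With each cell thinned to 1000 UMIs, 58 aged cells (1.33%) and 23 young cells (0.569%) were selected, while with 3 or more markers required the aged share was 0.827% and the young share 1.01%. Among cells of 2000 or more UMIs, 1.64% of aged and 1.53% of young cells were selected. Aged selected cells were shallower than other aged cells (medians 1835.5 and 2314 UMIs) and young selected cells deeper than other young cells (4657 and 3908 UMIs), so depth moved with age among the selected cells. Their median mitochondrial share was 5.43% in the aged and 4.48% in the young library, against 4.71% in aged and 3.93% in young other cells.

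The 2 libraries shared 33 barcodes among cells and none among selected cells. Scrublet marked 3 aged and 4 young cells as doublets and no selected cell. That is under 0.5% of cells, so doublets were in effect not removed.

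Genes outside the rule were then set against all other cells. A gene was judged as higher if it had 20 or more UMIs in the selected cells of each library, and as lower if 20 or more would be expected there at the level of the other cells. By these limits 110 of 1237 genes (8.89%) were at least 1.5-fold higher in both libraries and 227 of 1335 genes (17.0%) were at most 0.67-fold. The median ratio over the 1237 genes was 1.02 in the aged and 1.14 in the young library. The cells were chosen on RNA from these same libraries, so these ratios are descriptions. With 3 or more markers required, 37 genes were higher, 33 of them among the 110.

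Nrp2 had the highest ratio in the less extreme library among the 110 genes, and Ptch1 and Lgr5, also receptors, were within the 20 leading genes by that order. Nrp2, the neuropilin 2 co-receptor for semaphorins and VEGF, had 25 UMIs in aged and 44 UMIs in young selected cells. This was 18.5-fold (95% exact interval 11.1 to 30.03) and 39.7-fold (26.4 to 59.1) the level of other cells. Ptch1 had 50 UMIs (206 CPM) in aged and 47 UMIs (164 CPM) in young selected cells, 14.1-fold and 14.6-fold the level of other cells. Lgr5 had 43 UMIs in aged and 35 UMIs in young selected cells, 13.1-fold and 15.4-fold. For all 3 genes the lower ends of the intervals stayed above 9-fold in both libraries.

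The other hedgehog gene with enough UMIs, Gas1, which encodes a co-receptor for hedgehog ligands, was not called, with 35 UMIs (1.25-fold) in aged and 33 UMIs (1.08-fold) in young selected cells. The remaining genes of the list were too sparse to be judged as higher. Gli1, the target gene of the pathway used most often as its readout, had 10 UMIs in 10 aged and 14 UMIs in 13 young selected cells, against 1.48 CPM in aged and 1.55 CPM in young other cells. Gli2 had 6 UMIs in each library. The ligand gene Shh had no UMI in aged selected cells and 12 UMIs in 3 young selected cells. Of the 14 hedgehog genes listed, 2 had enough UMIs to be judged as higher and 1 of them, Ptch1, was, against 8.89% of all genes judged. The ligand genes Ihh and Dhh and the inhibitor gene Hhip had no UMI in selected cells of either library.

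Lhx2 had 63 UMIs in aged and 94 UMIs in young selected cells, 16.2-fold (11.9 to 21.7) and 11.9-fold (9.43 to 14.9) the level of other cells. Tbx1, a T-box factor of follicle stem cells, stood at 5.85-fold in the aged and 7.25-fold in the young library. Of the 9 listed factors with enough UMIs, 5 were higher in both libraries: Lhx2, Tbx1, Runx1, Vdr and Foxp1, against 8.89% of all genes judged. Of 6 judged as lower, 3 were, Gata3, Klf4 and Klf5, against 17.0% of all genes. A separate list, of growth-phase (anagen) hair matrix genes, had no gene with enough UMIs to be judged as higher. In it, Hoxc13, a factor needed for hair keratin genes, had 23 UMIs in aged and 19 UMIs in young selected cells, 18.6-fold and 18.9-fold. Lef1, the DNA-binding partner of beta-catenin, had 13 UMIs in aged and 11 UMIs in young selected cells, 23.1-fold and 46.1-fold. Of its 8 genes in the data, 5 had no UMI in aged selected cells (Shh, Dlx3, Krt35, Foxn1 and Padi3). In young ones 2 had none (Foxn1 and Padi3).

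Genes of bulge and follicle stem cells outside the rule went both ways. Of 8 listed genes judged as higher, 5 were (Lgr5, Lhx2, Tbx1, Cdh3 and Runx1), against 8.89% of all genes. Of 3 judged as lower, Krt15 and Col17a1 were, against 17.0% of all genes. Krt15, a keratin used as a bulge marker, stood at 4586 CPM in aged and 2894 CPM in young selected cells, against 8921 CPM in aged and 8807 CPM in young other cells. Col17a1, a hemidesmosome collagen, stood at 0.361-fold in the aged and 0.304-fold in the young library. The list of 15 genes summed to 0.603-fold in the aged and 0.429-fold in the young library.

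WNT and BMP genes did not form one block. Wif1, a secreted WNT inhibitor, had 37 UMIs in aged and 14 UMIs in young selected cells, 12.8-fold and 13.9-fold the level of other cells. Of 2 listed WNT genes judged as lower, 2 were, the ligands Wnt4 and Wnt10a, against 17.0% of all genes. Wnt4 stood at 0.309-fold in the aged and 0.298-fold in the young library. Another ligand gene, Wnt6, was too sparse to be judged and went the other way. It had 12 UMIs (49.4 CPM) in aged and 14 UMIs (49.0 CPM) in young selected cells, against 20.7 CPM in aged and 18.5 CPM in young other cells. Axin2, a widely used WNT target, had 5 UMIs in aged and 4 UMIs in young selected cells and was not distinguishable from other cells at this depth. The BMP target genes Id1 and Id3 were higher, Id3 with 69 UMIs (1.89-fold) in aged and 119 UMIs (2.52-fold) in young selected cells. Sostdc1, an inhibitor of WNT and BMP signals, was lower, at 0.328-fold in the aged and 0.251-fold in the young library.

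Several of the 20 leading genes encode matrix or adhesion proteins. In the fixed list of basement membrane and integrin genes, 1 of 3 genes judged was higher (Npnt) and 2 of 5 were lower (Col17a1 and Itga6), against 8.89% and 17.0% of all genes. Abi3bp, an extracellular matrix protein, had 206 UMIs (847 CPM) in aged and 130 UMIs (455 CPM) in young selected cells, 22.3-fold and 8.13-fold the level of other cells. Fbln1, a fibulin of the basement membrane and elastic fibres, stood at 10.9-fold in the aged and 16.9-fold in the young library. Alcam, an adhesion molecule of the immunoglobulin family, stood at 9.19-fold and 5.78-fold. Adamts1, a secreted metalloprotease, stood at 15.6-fold and 23.8-fold. Fras1, an extracellular matrix protein of the basement membrane that is not among the 20 for want of UMIs, had 10 UMIs in aged and 23 UMIs in young selected cells, 55.6-fold and 123-fold the level of other cells.

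The remaining leading genes ranged from 4.66-fold (Rab34, a small GTPase) to 14.1-fold (Phlda1) in the aged library and from 5.01-fold (Creb5) to 29.0-fold (Gadd45g) in the young one. Among these remaining genes were Dmd, which encodes dystrophin, Cald1, an actin-binding caldesmon, Dusp6, a phosphatase that switches off ERK, and Shisa2, an inhibitor of WNT and FGF receptor maturation. The plot of these ratios shows every leading gene above the level of other cells in both libraries, a direction that the choice of the genes fixes.

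**Figure D1:**
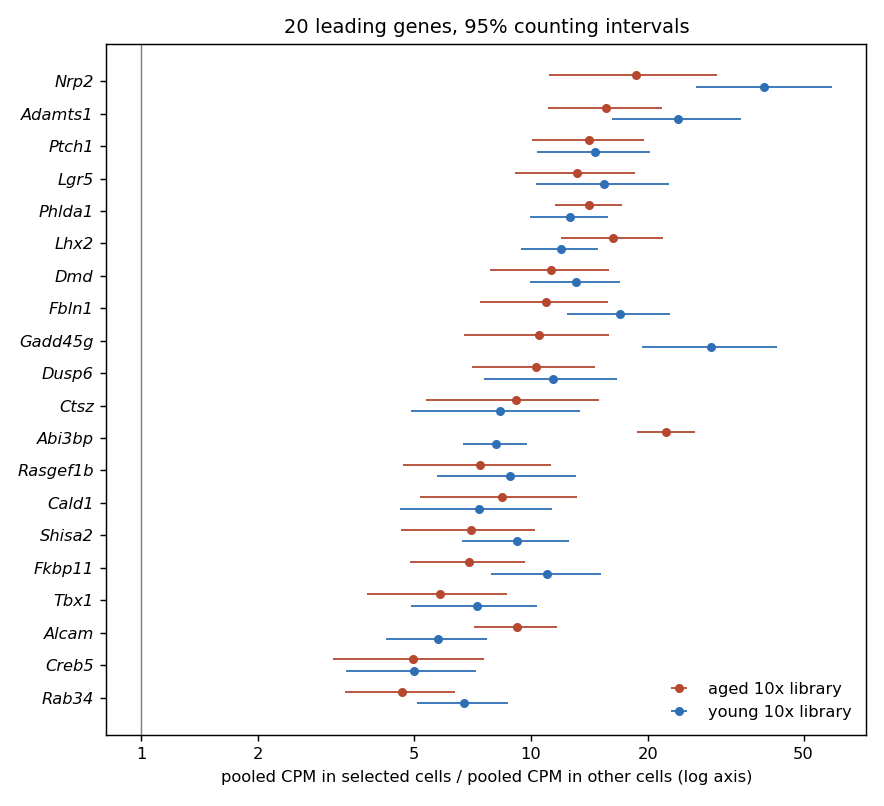
Ratio of pooled CPM in selected cells over other cells (log axis) for the 20 leading genes, in the aged and the young 10x library; bars are 95% exact intervals that cover counting error only. Nrp2 (39.7-fold) and Gadd45g (29.0-fold) reach farthest in the young library and Abi3bp (22.3-fold) in the aged one.

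Relatives of the markers varied in level. Cldn8, another claudin, had 23 UMIs in aged selected cells, 94.6 CPM against 22.6 CPM in other aged cells, and 9 UMIs in young selected cells, 31.5 CPM against 21.0 CPM in other young cells. The tight junction gene F11r stood at 2.33-fold in the aged and 1.27-fold in the young library. In the young library the intervals of both ratios included 1. Cldn1, the main claudin of the epidermal barrier, had 37 UMIs (1.37-fold) in aged and 28 UMIs (0.998-fold) in young selected cells, while Cldn3, Cldn4, Cldn6, Cldn7 and Cldn23 had none in either library. Myc itself had 10 UMIs (1.12-fold) in aged and 8 UMIs (0.936-fold) in young selected cells. Slc3a2, the heavy chain that partners several SLC7 transporters, stood at 1.75-fold in the aged and 1.32-fold in the young library, and Slc7a1, another carrier of cationic amino acids, had 1 UMI in aged and 3 UMIs in young selected cells. Arg2, which encodes the mitochondrial arginase that breaks down arginine, had 4 UMIs in aged and 25 UMIs in young selected cells, 5.94-fold (95% interval 1.52 to 16.8) and 18.1-fold (11.1 to 28.6) the level of other cells. The fibrillin genes Fbn1 and Fbn2, whose products form the core of microfibrils, had no UMI in selected cells, while Ltbp3, a latent TGF-beta binding protein of the matrix, stood at 3.32-fold in the aged and 2.63-fold in the young library.

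Several keratinocyte genes of the interfollicular epidermis were lower than in other cells. Krt14 stood at 3838 CPM in aged and 3174 CPM in young selected cells, against 15302 CPM in aged and 9922 CPM in young other cells. Krt5 stood at 0.303-fold in the aged and 0.365-fold in the young library. Of 9 listed interfollicular basal genes judged, 6 were lower in both libraries, and of 4 suprabasal genes judged, 4 were lower (Krtdap, Mt4, Sbsn and Dsg1a), against 17.0% of all genes. The rule leaves out Krt1/Krt10-rich cells, which bears on the suprabasal count. Krtdap had 29 UMIs in aged and 31 UMIs in young selected cells, 0.0618-fold and 0.0536-fold the level of other cells. Against only those cells that passed the exclusions, Krtdap was 0.447-fold and 0.395-fold, Dsg1a 0.300-fold and 0.280-fold, Sbsn 0.917-fold and 0.708-fold with intervals that included 1, and Mt4 0.546-fold in the aged but 1.99-fold in the young library. Cdkn1a, the cell cycle inhibitor p21, had 1 UMI in aged and 2 UMIs in young selected cells, against 143 CPM in aged and 172 CPM in young other cells. Krt17, a keratin of the outer root sheath, stood higher, at 2197 CPM in aged and 2771 CPM in young selected cells, against 659 CPM in aged and 1370 CPM in young other cells.

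Immediate early genes, which respond within minutes to stress and to cell dissociation, did not stand high in the selected cells. Of 7 judged, 4 were lower in both libraries, Junb, Jund, Ier2 and Dusp1, against 17.0% of all genes. Junb had 43 UMIs (0.503-fold) in aged and 77 UMIs (0.542-fold) in young selected cells.

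Integrin alpha 6, the surface protein of the sort, is encoded by Itga6. Its RNA had 14 UMIs in aged and 9 UMIs in young selected cells, 0.224-fold and 0.148-fold the level of other cells. Ly6a, which encodes Sca1, had 14 UMIs in 6 aged and 9 UMIs in 7 young selected cells, 0.171-fold and 0.0901-fold. Cd34 had no UMI in aged selected cells and 1 UMI in young ones, partly because the rule allows at most 1 of the 6 bulge genes.

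Genes of other cell types were checked by list. All 7 touch dome and Merkel cell genes and all 5 pericyte and smooth muscle genes were at 0 UMIs in selected cells of both libraries. T cell genes gave 5 UMIs in aged and 2 UMIs in young selected cells, and Langerhans and myeloid genes gave 7 UMIs in aged and none in young selected cells. Of 6 melanocyte genes, Dct was found, with 5 UMIs in 4 aged and 10 UMIs in 9 young selected cells, while Pmel, Tyrp1, Tyr, Mlana and Kit were at 0. The 6 genes summed to 20.6 CPM in aged and 35.0 CPM in young selected cells, against 1.94 CPM in aged and 8.83 CPM in young other cells. Fibroblast genes gave 173 CPM in aged and 126 CPM in young selected cells, against 142 CPM in aged and 90.0 CPM in young other cells. The part of these genes in the ratios above was not tested.

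The 20 leading genes were also summed by cell class, since the cells with 1 marker, the bulge-marked cells and the Krt79-positive cells each fail a part of the rule. The 20 genes were chosen for their level in these selected cells, so that selected cells lead on them was fixed by the choice. In selected cells the 20 genes summed to 4286 CPM in the aged and 3625 CPM in the young library. Bulge-marked cells, with 2 or more of the 6 bulge genes, had 2172 CPM in the aged and 1782 CPM in the young library. Cells with exactly 1 marker had 2247 CPM in the aged and 1048 CPM in the young library. Krt79-positive cells, with a Krt79 UMI and fewer than 2 bulge genes, had 460 CPM in the aged and 335 CPM in the young library. Cells with no marker had 280 CPM in the aged and 225 CPM in the young library, and Krt1/Krt10-rich cells 86.6 CPM and 64.1 CPM. The 1-marker class thus lay between selected and unmarked cells in both libraries. Among selected cells, 107 of 114 aged (93.9%) and 58 of 58 young cells had 3 or more of the 20 genes detected, against 123 of 3028 aged and 109 of 2154 young cells with no marker.

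**Figure D2:**
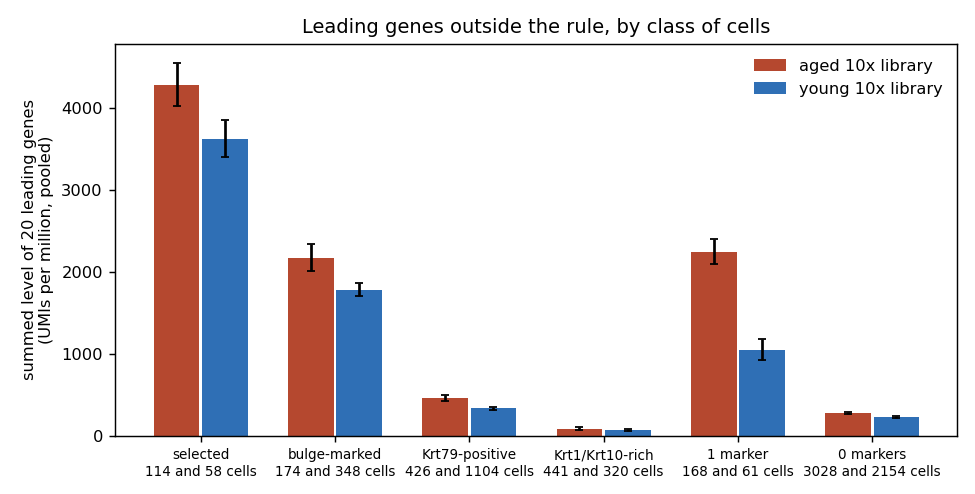
Summed CPM of the 20 leading genes by cell class in the aged and young 10x libraries, with 95% exact Poisson intervals for counting error. Selected cells stand highest in both libraries, which the choice of the genes fixes (4286 CPM aged, 3625 CPM young), with bulge-marked cells at 2172 CPM and 1782 CPM.

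Within the 20 genes the bulge-marked cells were like the selected cells for some genes and not for others. Lhx2 stood at 259 CPM in aged and 329 CPM in young selected cells, and at 249 CPM in aged and 298 CPM in young bulge-marked cells. Lgr5 was closer between these classes than its ratio to all other cells: 177 CPM in aged and 122 CPM in young selected cells. In bulge-marked cells it had 116 CPM in the aged and 79.9 CPM in the young library. Tbx1, Shisa2, Cald1 and Creb5 were higher in the bulge-marked cells in both libraries, and the other leading genes were not. Tbx1 had 115 CPM in aged and 119 CPM in young selected cells against 246 CPM in aged and 166 CPM in young bulge-marked cells. Shisa2 had 128 CPM in aged and 168 CPM in young selected cells against 313 CPM in aged and 221 CPM in young bulge-marked cells. Nrp2 differed widely, with 103 CPM in aged and 154 CPM in young selected cells against 3.23 CPM in aged and 11.3 CPM in young bulge-marked cells. Adamts1 and Abi3bp followed Nrp2: Abi3bp stood at 48.5 CPM in aged and 25.4 CPM in young bulge-marked cells. In Krt79-positive cells Abi3bp stood at 69.6 CPM in the aged and 95.7 CPM in the young library.

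The bulge-marked cells also carried part of the markers. Fam13a was detected in 13.8% of the 174 aged and 11.8% of the 348 young bulge-marked cells, which had medians of 1462.5 and 2561.5 UMIs. Cldn10 was found in 1 aged and 4 young bulge-marked cells, a share of 0.575% and 1.15%, against 0.454% of aged and 0.313% of young Krt1/Krt10-rich cells.

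Clustering of all cells without the rule's genes gave 15 clusters, and 153 of the 172 selected cells fell in one of them. That cluster held 335 cells, 246 aged (5.65% of aged cells) and 89 young (2.20% of young cells), and included 100 of 114 aged and 53 of 58 young selected cells. A further 12 selected cells lay in the cluster led by Cd34, and 3 in a cluster led by the proliferation genes Ube2c and Top2a. Another 3 lay in a cluster led by Igfbp3 and Il1r2, and 1 in a cluster led by Tm4sf1 and Cldn8. The 182 other cells of the main cluster, 146 aged and 36 young, held 90 cells with exactly 1 marker, 52 with none, 28 with Krt79 and 12 bulge-marked cells. These unselected cells carried the 20 leading genes at 3916 CPM (95% interval 3682 to 4162) in the aged and 3266 CPM (3010 to 3537) in the young library, against 4549 CPM in aged and 3698 CPM in young selected cells of the same cluster. Lgr5 stood at 173 CPM in aged and 110 CPM in young selected cells of the cluster, against 185 CPM in aged and 141 CPM in young unselected ones. The clustering left out only the rule's genes, so the 20 leading genes may have helped to place these unselected cells in the cluster. Their levels there are given as a description.

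Aged and young selected cells were compared gene by gene, again with 1 library per age and no test. Of 3091 genes with 20 or more UMIs over both libraries, 214 (6.92%) were at least 2-fold higher in aged selected cells and 295 (9.54%) were at most 0.5-fold. The median aged over young ratio was 0.925 in selected cells and 0.992 in other cells. Thinned to 1000 UMIs per cell, 86 genes were higher and 167 lower by the same limits.

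The 8 genes named as higher and the 8 named as lower in aged selected cells are those with the most extreme ratios. Among the higher ones, Angptl4, a secreted inhibitor of lipoprotein lipase, had 41 UMIs in aged and 2 UMIs in young selected cells, a ratio of 24.1 (95% exact interval 6.26 to 206), against 4.42 in other cells. Txnip, the thioredoxin-interacting protein that limits glucose uptake, had 221 UMIs in 96 aged and 37 UMIs in 28 young selected cells, a ratio of 7.02 (4.94 to 10.2), against 1.72 in other cells.

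Further genes of the aged side had fewer UMIs than Txnip. Tsc22d3, a glucocorticoid-induced leucine zipper gene, had 58 UMIs in aged and 9 UMIs in young selected cells (7.58-fold, 3.73 to 17.4). Thbs1, which encodes the matrix protein thrombospondin 1, had 53 UMIs in aged and 10 UMIs in young ones (6.23-fold, 3.14 to 13.7). Foxn3 stood at 8.70-fold, on 37 UMIs in aged and 5 UMIs in young selected cells, and Klf10 at 15.9-fold, on 27 UMIs and 2 UMIs. Ndufa4l2 stood at 9.40-fold, on 32 UMIs in 15 aged and 4 UMIs in 4 young selected cells. Its level was below that of other cells, 132 CPM against 1108 CPM in the aged and 14.0 CPM against 376 CPM in the young library. The part of free RNA in its ratio was not tested. In other cells the ratios of these 5 genes lay between 1.29 and 2.95.

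Among the lower genes, Odc1, the first enzyme of polyamine synthesis, had 14 UMIs in aged and 76 UMIs in young selected cells, a ratio of 0.217 (0.113 to 0.386). Tkt, a transketolase of the pentose phosphate pathway, had 22 UMIs in aged and 94 UMIs in young ones, a ratio of 0.275 (0.165 to 0.441), against 1.20 in other cells. Sox9, a transcription factor of follicle stem cells, had 10 UMIs in aged and 53 UMIs in young selected cells, a ratio of 0.222 (0.101 to 0.441), against 0.635 in other cells. Nasp, a histone chaperone, and Cdca7, a factor of DNA methylation, stood at 0.177-fold and 0.157-fold.

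Dbi, Fos and Lgals1 complete the 8 lower genes. The early response gene Fos had 42 UMIs in aged and 173 UMIs in young selected cells, a ratio of 0.285, against 0.505 in other cells. Lgals1 had 14 UMIs in aged and 75 UMIs in young selected cells, a ratio of 0.219, but the ratio was 0.831 after thinning and 0.800 among cells with 3 or more markers. Dbi had 44 UMIs in aged and 184 UMIs in young selected cells, a ratio of 0.281, and 0.448 after thinning. Genes of the proliferation list summed to 86 UMIs in 25 aged selected cells and 153 UMIs in 28 young ones, or 354 CPM and 535 CPM, against 431 CPM in aged and 350 CPM in young other cells. The part of cycling cells in these ratios was not tested.

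**Figure D3:**
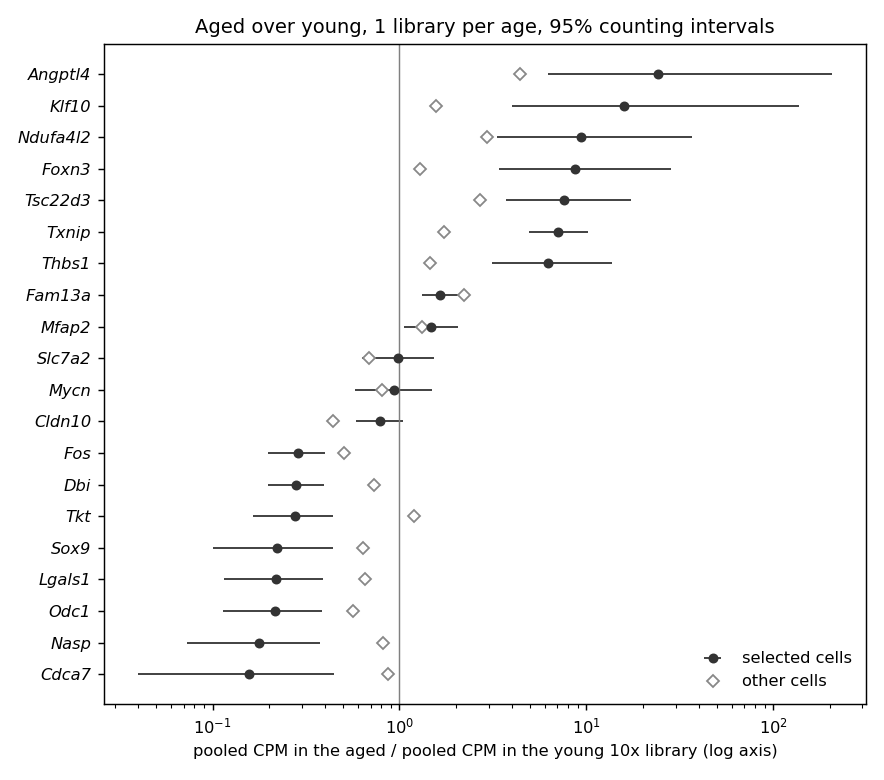
Aged over young ratio of pooled CPM (log axis) for the markers and the genes named for their age ratio in selected cells, with 95% exact intervals for counting error, and the same ratio in other cells as diamonds. Angptl4 is at 24.1 in selected and 4.42 in other cells, whereas Tkt is at 0.275 in selected and 1.20 in other cells.

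The marker levels, which the rule used, are given by age as a description. The aged over young ratio was 1.66 for Fam13a (1.32 to 2.09) and 1.47 for Mfap2 (1.06 to 2.05), while the intervals of Slc7a2, Mycn and Cldn10 spanned 1, at ratios of 0.980, 0.930 and 0.787. Among the leading genes, Abi3bp (1.86), Alcam (1.89) and Phlda1 (1.68) had intervals above 1, and Nrp2 stood at 0.668 with an interval of 0.392 to 1.12. Aged selected cells reached the rule's 2 markers at a lower depth, and how far that sets the marker ratios was not tested.

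The bulk RNA libraries, which the rule did not use, gave a replicated view of the same genes in the sorted populations. Their totals ran from 25126808 to 35905505 counts. In bulk RNA, fewer cells of a type and less RNA per cell cannot be told apart. The HFSC libraries hold the CD34-positive cells of their gate. Cd34 RNA had no UMI in aged and 1 UMI in young selected cells, and Ly6a, which encodes Sca1, was lower than in other cells. Whether the selected cells fall in the HFSC gate, the EpdSC gate or neither was not tested.

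All 5 markers were higher in HFSC than in EpdSC at both ages. Fam13a stood at 53.6 and 40.0 CPM in aged HFSC and 0.680 and 0.553 CPM in aged EpdSC, and at 40.1 and 46.8 CPM in young HFSC and 0.588 and 1.68 CPM in young EpdSC. Its log2 fold change was 6.23 (SE 0.40) in aged and 5.28 (SE 0.37) in young libraries, with Benjamini-Hochberg adjusted p = 5.25e-07 and 9.28e-07 by edgeR's quasi-likelihood test. The HFSC and EpdSC values did not overlap for any marker at either age; of all genes tested, both HFSC libraries lay above both EpdSC libraries for 33.8% in aged and 32.6% in young mice. Over all 21464 genes tested, 11.9% were called higher and 12.2% lower in aged HFSC, and 13.1% higher and 13.0% lower in young HFSC.

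Mycn stood at 24.7 and 27.0 CPM in aged HFSC against 0.556 and 1.20 CPM in aged EpdSC, and at 6.59 and 13.1 CPM in young HFSC against 0.647 and 0.987 CPM in young EpdSC. Its log2 fold change was 4.88 (SE 0.44) in aged and 3.59 (SE 0.43) in young libraries. Mfap2 changed by 4.29 and 3.51 and Slc7a2 by 2.57 and 1.69 on the same scale, with adjusted p of at most 0.00240 for both by edgeR. Slc7a2 stood at 52.2 and 54.9 CPM in aged HFSC and 6.89 and 11.1 CPM in aged EpdSC.

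Cldn10 separated the sorts on low counts. It stood at 3.09 and 3.36 CPM in aged HFSC and 0.371 and 0.423 CPM in aged EpdSC, a log2 fold change of 3.01 (SE 0.51, adjusted p = 0.000960 by edgeR). In young libraries it stood at 1.36 and 1.49 CPM in HFSC and 0.412 and 0.526 CPM in EpdSC, a log2 fold change of 1.60 (SE 0.49, adjusted p = 0.0325). The young call was lost without a filter on low counts (adjusted p = 0.135), with only the 4 libraries compared (0.0876) and in 6 of the 8 fits that left out 1 library (0.0567 to 0.212), those without either aged HFSC, either young HFSC or either young EpdSC library.

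**Figure D4:**
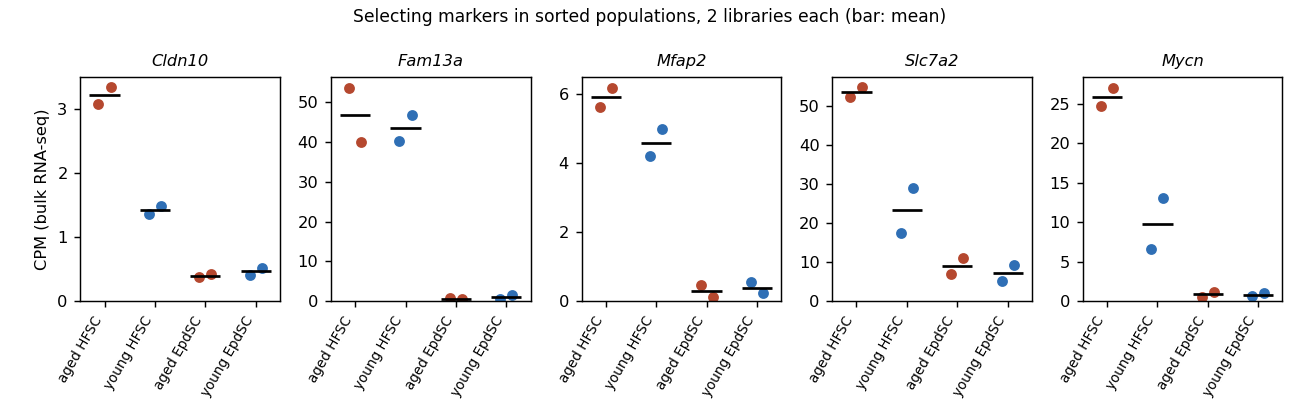
CPM of the 5 markers in the 8 bulk RNA libraries (points) with the mean of each group (bar). Every HFSC library lies above every EpdSC library of its age, with Fam13a at 40.0 to 53.6 CPM in HFSC and 0.553 to 1.68 CPM in EpdSC.

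Between ages no marker passed the test in the fit over all 8 libraries. In HFSC, 0 of 5 were called by edgeR, against 0.294% of all genes called higher and 0.0745% lower, and 3 had an unadjusted p under 0.05. The log2 fold change of aged over young HFSC was 1.40 for Mycn (SE 0.36, adjusted p = 0.170), 1.20 for Slc7a2 (SE 0.32, adjusted p = 0.182) and 1.17 for Cldn10 (SE 0.46, adjusted p = 0.518). For each of these 3, both aged HFSC values lay above both young ones, as for 18.0% of all genes tested. Calls depended on the fit for Mycn and Slc7a2. DESeq2 called Mycn (adjusted p = 0.0139) and Slc7a2 (adjusted p = 0.0123), and so did edgeR without a filter on low counts (0.000147 and 6.88e-06) and with a replicate block (0.0380 and 0.0276). In EpdSC, 0 of 5 were called by edgeR and 0 by DESeq2, against 0.0559% of all genes called higher and 0.0280% lower, and 0 had an unadjusted p under 0.05. The difference between the age effects of HFSC and EpdSC was not called for any marker (Mycn 1.29, SE 0.59, unadjusted p = 0.0497, adjusted p = 1.00 by edgeR).

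Of the 20 leading genes, 16 were higher in HFSC at both ages and none lower, against 11.9% of all genes called higher in aged and 13.1% in young libraries. Adamts1, Dusp6, Rasgef1b and Fkbp11 were not called at either age. Lgr5 stood at 360 and 298 CPM in aged HFSC and 1.42 and 2.67 CPM in aged EpdSC, and at 398 and 343 CPM in young HFSC and 0.765 and 2.27 CPM in young EpdSC. Its log2 fold change was 7.33 (SE 0.41) in aged and 7.95 (SE 0.42) in young libraries, with adjusted p = 2.09e-07 and 1.21e-07 by edgeR. Shisa2 had the largest change of the 20, 9.42 in aged and 9.55 in young libraries, followed by Lhx2 at 7.96 in aged and Tbx1 at 8.77 in young libraries. In the single cells, Shisa2 and Tbx1 stood higher in bulge-marked than in selected cells, and Lhx2 stood at a similar level in both.

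Nrp2, which set the selected cells apart from the bulge-marked cells, had smaller changes than Lgr5 in the sorts. It stood at 24.6 and 26.5 CPM in aged HFSC and 1.70 and 3.61 CPM in aged EpdSC, a log2 fold change of 3.27 (SE 0.45). In young libraries it stood at 12.8 and 4.80 CPM in HFSC and 2.41 and 2.20 CPM in EpdSC, a log2 fold change of 1.94 (SE 0.44, adjusted p = 0.00679 by edgeR), and 1.03 (adjusted p = 0.0931) without young HFSC replicate 1. Adamts1, its companion in the single cells, stood at 56.9 and 71.5 CPM in aged HFSC against 35.5 and 42.4 CPM in aged EpdSC, and at 52.8 and 25.1 CPM in young HFSC against 35.5 and 115.7 CPM in young EpdSC, where the groups overlapped.

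Hedgehog genes were among those higher in HFSC. Gli1 stood at 82.2 and 62.1 CPM in aged HFSC and 0.340 and 1.40 CPM in aged EpdSC, and at 64.7 and 78.4 CPM in young HFSC and 1.29 and 0.790 CPM in young EpdSC. Its log2 fold change was 6.38 (SE 0.43) in aged and 6.08 (SE 0.42) in young libraries. Of 13 listed hedgehog genes tested, 9 were higher in HFSC and none lower at each age, against 11.9% of all genes called higher in aged and 13.1% in young libraries, with a median log2 fold change of 2.19 in aged and 1.83 in young libraries, against 0.09 and 0.06 over all genes. Wif1 stood at 75.4 and 130.5 CPM in aged HFSC and 26.1 and 23.8 CPM in young HFSC, against 0 and 0.456 CPM in aged EpdSC and 0.118 and 0.625 CPM in young EpdSC. Its age difference in HFSC was 2.05 (SE 0.43, adjusted p = 0.0888 by edgeR).

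The families of the markers were read against 11.9% of all genes called higher and 12.2% lower in aged HFSC, and 13.1% and 13.0% in young HFSC. Of 16 listed microfibril and latent TGF-beta binding genes tested, 9 were higher and 1 lower in HFSC at each age, with a median log2 fold change of 2.26 in aged and 2.33 in young libraries, against 0.09 and 0.06 over all genes tested. The 9 differed by 1 gene, Fbn2 in aged and Ltbp4 in young libraries. Of 14 claudin and tight junction genes, 3 were higher at both ages (Cldn10, Cldn8 and F11r), with 2 lower in aged and 4 lower in young libraries, and the young call of Cldn10 depended on the fit as given above. Of 14 genes of the Slc7 transporter list, Slc7a2, Arg1, Slc7a8 and Slc3a2 were higher at both ages, with 3 lower in aged and 2 lower in young libraries. Of 12 Myc and Max network genes, Mycn and Max were higher and Myc, Mycl, Mnt and Mlx lower at both ages, and Mxi1 was higher in young libraries. Of 12 immediate early genes, 11 were lower in HFSC at each age, with medians of -2.55 in aged and -2.98 in young libraries. Each of these lists except the last contains a marker.

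Of the 110 genes higher in selected cells, 67 were higher and 8 lower in aged HFSC than in aged EpdSC, with a median log2 fold change of 0.96. In young libraries 65 were higher and 7 lower, with a median of 0.85. Of the 227 genes lower in selected cells, 8 were higher and 162 lower in aged HFSC (median -1.001), and 9 were higher and 166 lower in young HFSC (median -0.93). As a share, 60.9% of the 110 genes were called higher in aged and 59.1% in young HFSC, against 11.9% and 13.1% of all genes, while 71.4% and 73.1% of the 227 genes were called lower, against 12.2% and 13.0%. Between ages, 0 of the 110 were called in HFSC by edgeR and 2 by DESeq2, with 16 at an unadjusted p under 0.05; in EpdSC, 0 were called by edgeR and 4 by DESeq2, with 12 at an unadjusted p under 0.05.

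The genes named for their age ratio in the selected cells were looked up in the sorted HFSC. None of the 8 genes higher and none of the 8 lower in aged selected cells was called between aged and young HFSC by edgeR, where 0.294% of all genes were called higher and 0.0745% lower, so a count of 0 says little about them; 4 and 2 had an unadjusted p under 0.05. DESeq2 called Thbs1 and Fos, both higher in aged HFSC. Fos stood at 551 and 431 CPM in aged HFSC and 235 and 94.0 CPM in young HFSC, opposite in sign to the single cells, with a log2 fold change of 1.58 (SE 0.32, adjusted p = 0.0761). Txnip stood at 705 and 595 CPM in aged HFSC and 829 and 1140 CPM in young HFSC. Sox9 stood at 258 and 287 CPM in aged HFSC and 277 and 243 CPM in young HFSC, where the ages overlapped.

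Open chromatin at gene starts was read in 500-base windows within 1000 bases of each RefSeq start on GRCm38.p6. There is 1 ATAC library per group, so no test was made. The sequences of 4 starts are shown because the ATAC counts there differ in kind: the 2 starts of Cldn10, a marker with little signal at either, Fam13a, the marker with the strongest young HFSC signal, and Tbx1, the leading gene with the highest HFSC over EpdSC ratio. Each is the 250 bases before the start, 5′ to 3′ on the gene's strand, from RefSeq. Capitals mark a letter-for-letter match to one of the motifs searched.
Cldn10 upstream start, chr14:118787621-118787870, plus strand: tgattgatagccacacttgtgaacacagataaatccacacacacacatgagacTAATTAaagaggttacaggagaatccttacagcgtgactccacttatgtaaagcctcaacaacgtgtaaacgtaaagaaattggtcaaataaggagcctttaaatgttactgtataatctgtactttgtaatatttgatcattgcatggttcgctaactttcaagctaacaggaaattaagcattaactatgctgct
Cldn10 downstream start, chr14:118854700-118854949, plus strand: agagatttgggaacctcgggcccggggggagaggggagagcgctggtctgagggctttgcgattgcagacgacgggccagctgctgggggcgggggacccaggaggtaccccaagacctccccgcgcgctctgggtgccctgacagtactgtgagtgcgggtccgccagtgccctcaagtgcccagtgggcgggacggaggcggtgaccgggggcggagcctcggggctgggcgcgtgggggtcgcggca
Fam13a, chr6:59024503-59024752, minus strand: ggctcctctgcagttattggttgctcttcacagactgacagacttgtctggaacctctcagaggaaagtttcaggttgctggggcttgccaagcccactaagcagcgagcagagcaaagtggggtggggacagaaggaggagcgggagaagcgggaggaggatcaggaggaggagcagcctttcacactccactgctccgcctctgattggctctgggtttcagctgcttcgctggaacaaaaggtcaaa
Tbx1, chr16:18588900-18589149, minus strand: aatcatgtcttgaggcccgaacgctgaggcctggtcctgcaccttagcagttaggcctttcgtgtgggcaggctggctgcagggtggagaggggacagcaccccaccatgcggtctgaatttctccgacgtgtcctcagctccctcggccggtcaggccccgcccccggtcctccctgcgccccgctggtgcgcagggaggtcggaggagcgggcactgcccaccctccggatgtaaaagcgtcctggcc

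The 2 Cldn10 starts differ in composition: 36% GC with 4 CpG at the upstream start and 72.4% GC with 22 CpG at the downstream one. Fam13a had 56% GC with 5 CpG and Tbx1 67.2% GC with 17 CpG. A TAATTA core, the letters bound by many homeodomain factors, lay 197 bases before the upstream Cldn10 start. It is present in 4.84% of 32851 promoters of the same length. The GLI letters TGGGTGGTC were searched on both strands and found at none of the marker or leading starts, against 0.225% of all promoters. The TCF/LEF letters CTTTGAT (3.21% of all promoters) were found before Nrp2, and the E-box CACGTG (6.02%) before Creb5, Gadd45g and Fbln1. These matches are descriptions of letters and not binding sites. No sequence is given for Slc7a2, Lgr5, Phlda1 and Abi3bp.

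The ATAC libraries held 8456209 counts in aged HFSC, 26694946 in young HFSC, 23376172 in aged EpdSC and 37912498 in young EpdSC. The median HFSC over EpdSC ratio over all starts was 0.538 in aged and 0.947 in young libraries, so each ratio has to be read against these. Fam13a had 78 counts in aged HFSC and 214 in aged EpdSC, and 728 in young HFSC and 283 in young EpdSC. Scaled to library totals this was 9.22 CPM in aged HFSC and 9.15 CPM in aged EpdSC (ratio 1.01), and 27.3 CPM in young HFSC and 7.46 CPM in young EpdSC (ratio 3.65). The downstream Cldn10 start had 13 counts in aged HFSC and 71 in aged EpdSC (ratio 0.506), and 42 in young HFSC and 76 in young EpdSC (ratio 0.785). The upstream Cldn10 start had at most 10 counts in any library, too few for a ratio.

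Among the leading genes, Tbx1 and Shisa2 had the most HFSC-skewed starts. The Tbx1 start shown had 136 counts in aged HFSC and 38 in aged EpdSC (ratio 9.89), and 661 in young HFSC and 77 in young EpdSC (ratio 12.2). Shisa2 stood at 9.57 in aged and 11.6 in young libraries, and the downstream start of Lhx2 at 2.38 and 4.82. Of 24 leading starts with enough counts, 5 in aged and 6 in young libraries were at least 2-fold higher in HFSC, against 6.88% and 7.87% of all starts. Of 5 marker starts with enough counts, 0 in aged and 3 in young libraries passed 2-fold: Fam13a and both Mfap2 starts, which share their windows (ratio 2.26). Mycn had ratios of 0.783 in aged libraries, above the median of all starts there, and 0.766 in young libraries, below the median there.

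**Figure D5:**
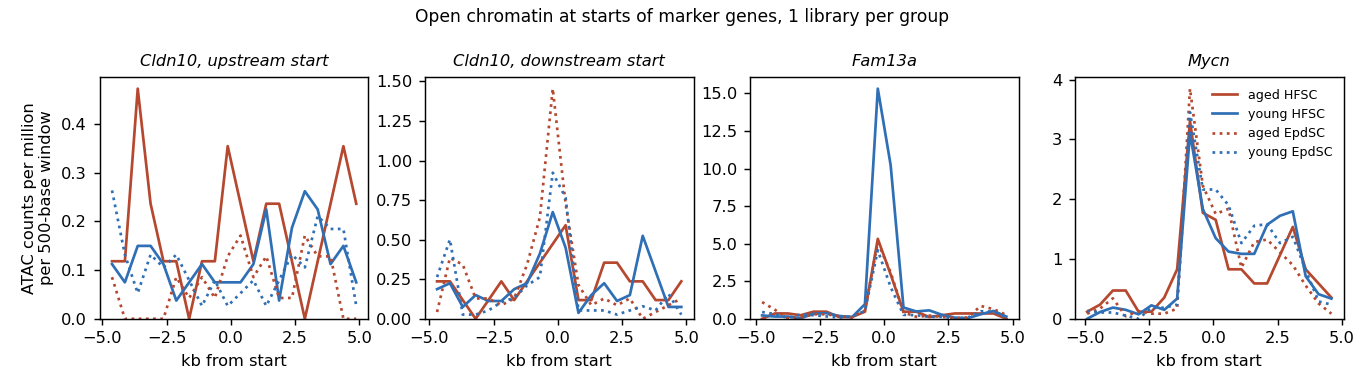
ATAC CPM in 500-base windows from 5 kb before to 5 kb after the start of Cldn10 (both starts), Fam13a and Mycn, in HFSC (solid) and EpdSC (dotted) of each age, with 1 library per line. The Fam13a start shows the young HFSC line above the others, 27.3 CPM within 1000 bases of the start, while the Cldn10 starts stay low in every library.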

How the data were processed

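The deposited files hold raw counts: per the file headers and values, the authors deposited read counts per gene for the 8 bulk RNA libraries, UMI counts per gene and barcode for the 2 10x libraries, and read counts per 500-base window for the 4 ATAC libraries. The submitters' processing notes name STAR, Bowtie, Cell Ranger and the mouse build mm10, without a version or counting settings. The 10x matrices held all 737280 barcodes, of which 4470 aged and 4187 young ones had 1000 or more UMIs before the other filters. Selected cells were summed per library. Their levels carry exact Poisson intervals, their shares exact Clopper-Pearson intervals and their ratios exact conditional intervals, all at 95% and for counting error only. Cells were clustered with scanpy 1.11.5 and leidenalg 0.10.2 (2000 variable genes without those of the rule, 30 components, 15 neighbours, resolution 1.0).

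Bulk counts were fitted with edgeR 4.0.16 in R 4.3.3 (TMM, filterByExpr, quasi-likelihood test, 1 fit over all 8 libraries), with Benjamini-Hochberg adjustment over 21464 of 47729 genes and calls at an adjusted p under 0.05. DESeq2 1.42.0, other filters, a replicate block and leaving out each library were the alternatives. ATAC counts were summed over the windows within 1000 bases of a RefSeq start and divided by the total of non-overlapping windows, with 20 or more counts over a pair of libraries required for a ratio. The scripts were tested on simulated data. Named genes were the 5 markers, the 20 genes with the highest and the 10 with the lowest ratio in the less extreme library, the 8 highest and 8 lowest genes by age, and members of gene lists; 2 of these genes are not reported here, though counts include them. The cells, the markers and the lists were chosen with earlier results of these data known.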

Additional observations from a re-analysis of the deposited data

How the results depend on the processing

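The share of selected cells and the counts of genes moved with the selection. The aged share, 2.62% as reported, was 1.33% after thinning to 1000 UMIs, 1.61% with at most 5% mitochondrial UMIs, 1.64% with 2000 or more UMIs and 0.827% with 3 or more markers. It was 2.00% without Cldn10, 1.24% without Fam13a and 1.79% without Mfap2 among the markers. The young share, 1.43% as reported, was 0.569% after thinning and 1.01% with 3 or more markers. The 110 higher genes became 48 after thinning (40 of them shared), 37 with 3 or more markers (33 shared) and 69 at 2-fold, and the 227 lower genes became 123, 97 and 138. Genes at least 2-fold higher in aged selected cells numbered 86 after thinning and 87 with 3 or more markers in place of 214. Those at most 0.5-fold numbered 167 after thinning and 268 with 3 or more markers in place of 295. Of the 10x ratios of named genes, 195 kept within their intervals and 45 did not, and of the age ratios 42 did and 6 did not. The causes were not tested.

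The count of genes called by age in bulk RNA depended on the fit. Between aged and young HFSC, 63 higher and 16 lower genes became 448 and 182 with low-count genes kept, 7 and 2 with only the 4 libraries compared, and 270 and 89 with DESeq2. Leaving out each library in turn gave 10 to 137 higher and 2 to 44 lower genes. Between aged and young EpdSC, 12 and 6 genes became 154 and 76 with low-count genes kept, 3 and 0 with only the 4 libraries compared and 60 and 25 with DESeq2, with 4 to 21 higher and 2 to 10 lower genes when each library was left out. For HFSC against EpdSC of aged mice, leaving out each library gave 1822 to 2520 higher and 1784 to 3007 lower genes, in place of 2552 and 2628. In young mice it gave 1983 to 2745 higher and 1685 to 3216 lower genes, in place of 2812 and 2788.

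The replicate block gave 123 higher and 37 lower genes between aged and young HFSC, 16 and 7 between aged and young EpdSC, 2592 and 2802 in HFSC against EpdSC of aged mice and 2814 and 2956 of young mice. It called Slc7a2 (1.26, adjusted p = 0.0276) and Mycn (1.49, adjusted p = 0.0380) higher in aged HFSC. Same-numbered libraries correlated by -0.042 to 0.227 in their deviations from the group means, so the numbers were not shown to pair the libraries. With a library left out, some uncalled log2 fold changes changed sign: Fam13a between aged and young HFSC ran from -0.13 to 0.31, and in HFSC against EpdSC Rasgef1b ran from -0.14 to 0.28 in aged and -0.61 to 0.15 in young libraries, Dusp6 from -0.37 to 0.093 and -0.19 to 1.39, and Adamts1 from -1.63 to 0.12 in young libraries. Depth limits the single-cell values: the 5 markers rest on 34 to 186 UMIs each per library, and 1 library per age gives no replicate error.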
